A study of Mus musculus with 12 samples.

Results

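The RUNX and ETS transcription factors were followed as 8 genes, namely Runx1, Runx2, Runx3 and their partner Cbfb, and the ETS genes Ets1, Ets2, Fli1 and Elf1. They were taken by symbol, and all 8 were found among the 25860 genes of the RNA-seq table. In the ATAC-seq table, 95 of 23932 peaks carried the name of one of them as the nearest gene, and 7 of the 8 had at least 1 peak. RUNX proteins bind DNA through the Runt domain, and CBFβ, which does not bind DNA itself, pairs with them and strengthens that binding. In the CD8 lineage RUNX3 is the main family member and is known for silencing Cd4 and Zbtb7b, while RUNX1 acts from the earliest thymocytes and RUNX2 is best known from bone. ETS proteins share a winged helix domain that reads a GGAA core, and ETS1, FLI1 and ELF1 are abundant in lymphocytes, where RUNX and ETS proteins often occupy neighbouring sites of T cell genes.

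The cells were stem-like progenitor CD8+ T cells (T_prog) sorted from the pancreatic lymph nodes (pLNs) of female NOD mice, a strain that develops autoimmune diabetes. All mice carried the NY8.3 transgenic T cell receptor, which recognizes a β cell antigen presented to CD8+ T cells, so every group had this transgene. NOD-TCR 8.3 UTX^TCD mice were UTX^fl/fl with Cre under the Lck promoter, which is active in T cells from the thymus onward, so that the X-linked gene Kdm6a, which encodes the histone demethylase UTX, was targeted in T cells at large and before they reached the pLN. The floxed allele and Cre had been moved from B6 to NOD by backcrossing, and the WT controls of this colony were described as Cre-negative littermates. Ly108+ cells were sorted as CXCR6− by the submitters' design text and as CD39− by the methods. The age of the mice behind these libraries was not given in the sources used here. RNA-seq and ATAC-seq each had 3 libraries per genotype. The study described as many mice as libraries in each group for both assays, while the labels did not tie a library to a mouse. The p-values therefore set the difference between genotypes against the spread between libraries, part of which may be technical.

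RNA-seq was deep. The WT libraries held 146456724, 144503203 and 193568919 gene-assigned reads, and the UTX^TCD libraries held 61512402, 175462433 and 187275082. UTX^TCD replicate 1 was the shallowest, although even there Runx2, the lowest of the 8 genes, had 831 reads. Expression values are normalized counts, that is, reads assigned to a gene divided by a size factor of the library. Genotypes were compared with limma on log2(normalized count + 1) over 14459 genes with a mean of at least 10, and an adjusted p under 0.05 (Benjamini-Hochberg, over all of these genes) was taken as passing. A gene was called when its log2 fold change was also beyond 0.5 in either direction. An exact permutation test of 3 libraries against 3 cannot give a p below 0.10, so none is given for single genes.

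Kdm6a was read first as a check of the labels. Its normalized count was 28365, 28949 and 29172 in WT and 24158, 24792 and 24579 in UTX^TCD. Every UTX^TCD library lay below every WT library, with a log2 fold change of −0.23 ± 0.04 (SE) and a limma adjusted p of 0.00114. A count over the whole gene does not show which exons were read, so it does not measure the deletion itself.

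The cell type labels were checked against marker lists. All 9 genes of CD8 T cell identity were expressed, led by Cd8a, and their normalized counts summed to 1192760, 1118264 and 1170140 in WT and 1134806, 1111448 and 1028141 in UTX^TCD. Of these 9, 1 was higher and 6 were lower in UTX^TCD at the test, and their median log2 fold change was −0.19 against 0.00 over all tested genes. The shares over all tested genes, to be set beside this and the other marker lists, were 20.2% higher at the test, 20.5% lower and 17.6% called. The 6 lower genes became 4 without WT replicate 1 or 3 or UTX^TCD replicate 1. The 1 higher gene became 2 without UTX^TCD replicate 3 and 0 with any other library left out. None of the 9 was called, although Cd2, named after its values were seen, was past the fold limit without WT replicate 2, UTX^TCD replicate 1 or UTX^TCD replicate 2 (−0.52 to −0.58). The 7 progenitor markers, led by Tcf7, summed to 646952, 647438 and 595732 in WT and 684532, 642211 and 664208 in UTX^TCD, with 3 higher at the test, of which Ikzf2 was called. These counts moved with single libraries. Without WT replicate 2, 5 passed and 3 were called, as Slamf6 (0.43) and Id3 (0.57) came to pass and Myb rose to 0.62, while Myb did not pass without WT replicate 1 (limma adjusted p 0.113), WT replicate 3 (0.112) or UTX^TCD replicate 3 (0.0852). Myb was also called without UTX^TCD replicate 1 (0.56) or UTX^TCD replicate 2 (0.60), so that 2 markers were called there. Slamf6, Id3 and Myb were named after their values were seen. The 4 genes of mediator cells, which the sort was meant to leave out, were led by Thy1 and summed to 212026, 170157 and 208457 in WT and to 59469, 60309 and 49305 in UTX^TCD. Thy1 and Cxcr6 were called lower, and 3 of the 4 passed the test. The third, Nkg7, named after its values were seen, was called only without WT replicate 2 (−0.54). The part that such a shift of cell state plays in the results on RUNX and ETS genes was not tested. In bulk RNA, fewer cells of a kind and less RNA per cell cannot be told apart.

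Each list of markers of other lineages summed to far less than the CD8 T cell list, but not every gene was low beside the RUNX genes. In WT the means of Cd79b (2299), Cst3 (3841) and Pecam1 (30622) lay above that of Runx2 (945). In UTX^TCD Cst3 (2835) and Pecam1 (35787) lay above Runx2 (2276), and Cd79b (583) lay below it. The 6 B cell genes, led by Cd79b with Pax5 at 0 in at least 1 library, summed to 2957, 2442 and 2805 in WT and to 1226, 1083 and 1008 in UTX^TCD, where Cd79b was called lower (−1.98) and Ms4a1 higher (1.72). The call of Ms4a1 was lost without WT replicate 1 or 3 or without UTX^TCD replicate 2 or 3 (1.21 to 1.84, limma adjusted p 0.0682 to 0.119). The 8 myeloid genes, led by Cst3 with Cd14 and Siglech at 0 in at least 1 library, summed to 5246, 4676 and 3815 in WT and to 4436, 3369 and 3507 in UTX^TCD, with Csf1r called lower (−1.85). Cst3 was also lower at the test (−0.44, limma adjusted p 0.0323) and Cd68, named after its values were seen, was higher (0.43, limma adjusted p 0.0377). Cst3 did not pass without WT replicate 1 or 2 or UTX^TCD replicate 2 or 3 (limma adjusted p 0.0823 to 0.111), nor did Cd68 when any 1 library other than UTX^TCD replicate 2 was left out (0.0528 to 0.12). Conversely, Cst3 was called without UTX^TCD replicate 1 (−0.57) or WT replicate 3 (−0.56), and Cd68 without UTX^TCD replicate 2 (0.57). CD4 and regulatory T cell genes, 4 in all and led by Foxp3, summed to 518, 413 and 490 against 391, 382 and 369, and 2 of them, Cd4 (−0.74) and Zbtb7b (−1.85), were called lower. Cd40lg, named after its values were seen, was lower by a similar amount without passing (−0.82, limma adjusted p 0.0534). The called genes became 3, with Cd40lg, without UTX^TCD replicate 2 and 1, Zbtb7b, with any other library left out. Both Cd4 and Zbtb7b are also RUNX target genes of the list below, and a change in CD4 cells among the sorted cells cannot be told apart here from a change within CD8+ cells. The 4 NK genes, led by Tyrobp with Ncr1 at 0 in at least 1 library, summed to 207, 233 and 144 against 184, 111 and 130. Among megakaryocyte and platelet genes, Pf4, Ppbp and Gp9 were at 0 in at least 1 library and Itga2b led, with list sums of 404, 420 and 384 against 454, 380 and 370. Of the endothelial genes, Kdr and Tie1 were at 0 in at least 1 library of each genotype, and Cdh5 had 24.8, 21.7 and 9.91 in WT and 0 in all 3 UTX^TCD libraries, with a mean too low to be tested. With any 1 UTX^TCD library left out, Cdh5 was tested and was called lower. The sums of 31199, 29388 and 31340 against 37059, 37241 and 33071 came almost wholly from Pecam1, which T cells also express and which was higher at the test (0.22, limma adjusted p 0.0114), though not without UTX^TCD replicate 2 (0.19, limma adjusted p 0.0518). The part of these cells in the results on RUNX and ETS genes was not tested.

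Loss of UTX was accompanied by more RNA of Runx1 and Runx2 and less of Fli1. Runx3 was slightly higher and passed narrowly (limma adjusted p 0.0462), and it passed in only 9 of 15 alternative settings. Cbfb, Ets1, Ets2 and Elf1 did not pass the test. Thus 4 of the 8 genes passed, 3 higher and 1 lower, where 40.7% of all tested genes passed, 20.2% higher and 20.5% lower. Only Runx2 was also beyond the fold limit, against 17.6% of all tested genes. In 4 of the 8 genes the libraries of the 2 genotypes did not overlap, where the share over all tested genes was 51.9%. The totals that passed and that did not overlap are close to the shares of the transcriptome at large, so they do not set the RUNX and ETS genes apart. The split into 3 higher and 1 lower lay further from the shares over all tested genes. It rests on 8 genes, counts Runx3 among the 3 higher and was not tested.

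Runx2 had the largest fold change of the 8. Its normalized count was 911, 1002 and 921 in WT and 1869, 1997 and 2963 in UTX^TCD. All UTX^TCD libraries lay above all WT libraries, and replicate 3 of UTX^TCD stood well above the other 2 of its group. Means were 945 ± 50 (SD, n = 3) and 2276 ± 598 (SD, n = 3), with a log2 fold change of 1.24 ± 0.15 (SE), a ratio of 2.36 and a limma adjusted p of 0.000289. Without replicate 3 of UTX^TCD the log2 fold change was 1.03. Runx2 overlaps Supt3, which lies on the other strand, and whether reads were counted by strand was not given in the sources used here, so reads of the 2 genes may not be separated. Supt3 itself had 1570, 1390 and 1448 in WT and 1525, 1585 and 1586 in UTX^TCD, and these values overlapped (log2 fold change 0.09, limma adjusted p 0.337).

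Runx1, which is needed for early T cell development, was higher as well. It had 9300, 7792 and 8648 in WT and 12171, 11284 and 11499 in UTX^TCD. The lowest UTX^TCD library was above the highest WT library. Means were 8580 ± 756 (SD, n = 3) and 11652 ± 463 (SD, n = 3), with a log2 fold change of 0.44 ± 0.07 (SE) and a limma adjusted p of 0.000772. Without replicate 1 of WT the log2 fold change was 0.50, and Runx1 was then called.

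Runx3, the RUNX gene of mature CD8+ T cells, had 38796, 38715 and 36802 in WT and 42534, 41420 and 40390 in UTX^TCD. The groups did not overlap, although the gap was small beside the level, and the ratio was 1.09. The log2 fold change was 0.12 ± 0.04 (SE) with a limma adjusted p of 0.0462, close to the threshold. It passed in 9 of 15 alternative settings, where its log2 fold change ran from 0.10 to 0.18 and its adjusted p reached 0.159. Leaving out WT replicate 1 (limma adjusted p 0.0893), WT replicate 3 (0.159), UTX^TCD replicate 1 (0.154) or UTX^TCD replicate 2 (0.124) was enough for it not to pass, as was edgeR or a test without the filter on low values. The direction was the same in all 15. Cbfb, the common partner of the RUNX proteins, had 28814, 29491 and 30232 in WT and 26453, 28584 and 29115 in UTX^TCD, values that overlapped (log2 fold change −0.07 ± 0.05 SE, limma adjusted p 0.245).

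Fli1, an ETS factor known to restrain effector differentiation of CD8+ T cells, was the member that fell. Its normalized count was 20992, 20599 and 20961 in WT and 17626, 17867 and 16200 in UTX^TCD. The 3 WT libraries lay within a narrow band, and every UTX^TCD library was below it. The ratio was 0.826 and the log2 fold change −0.28 ± 0.05 (SE), with a limma adjusted p of 0.00161.

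Ets1, the most abundant of the 8 genes, had 293469, 354575 and 302428 in WT and 305485, 311350 and 278738 in UTX^TCD. Replicate 2 of WT was highest, and the rest of the libraries were interleaved. Its log2 fold change was −0.08 ± 0.08 (SE; limma adjusted p 0.453), and without replicate 2 of WT it was 0.00. Ets2, a close relative of Ets1, had 9110, 10948 and 9606 in WT and 9234, 9614 and 7854 in UTX^TCD. Here too replicate 2 of WT was highest and the groups overlapped (log2 fold change −0.15 ± 0.09 SE, limma adjusted p 0.199). Elf1, which belongs to another branch of the ETS family, had 73458, 68624 and 73466 in WT and 67770, 69400 and 71973 in UTX^TCD. The groups overlapped (log2 fold change −0.04 ± 0.05 SE, limma adjusted p 0.498), and the sign turned to 0.02 when libraries were scaled to the same sum.

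**Figure D1:**
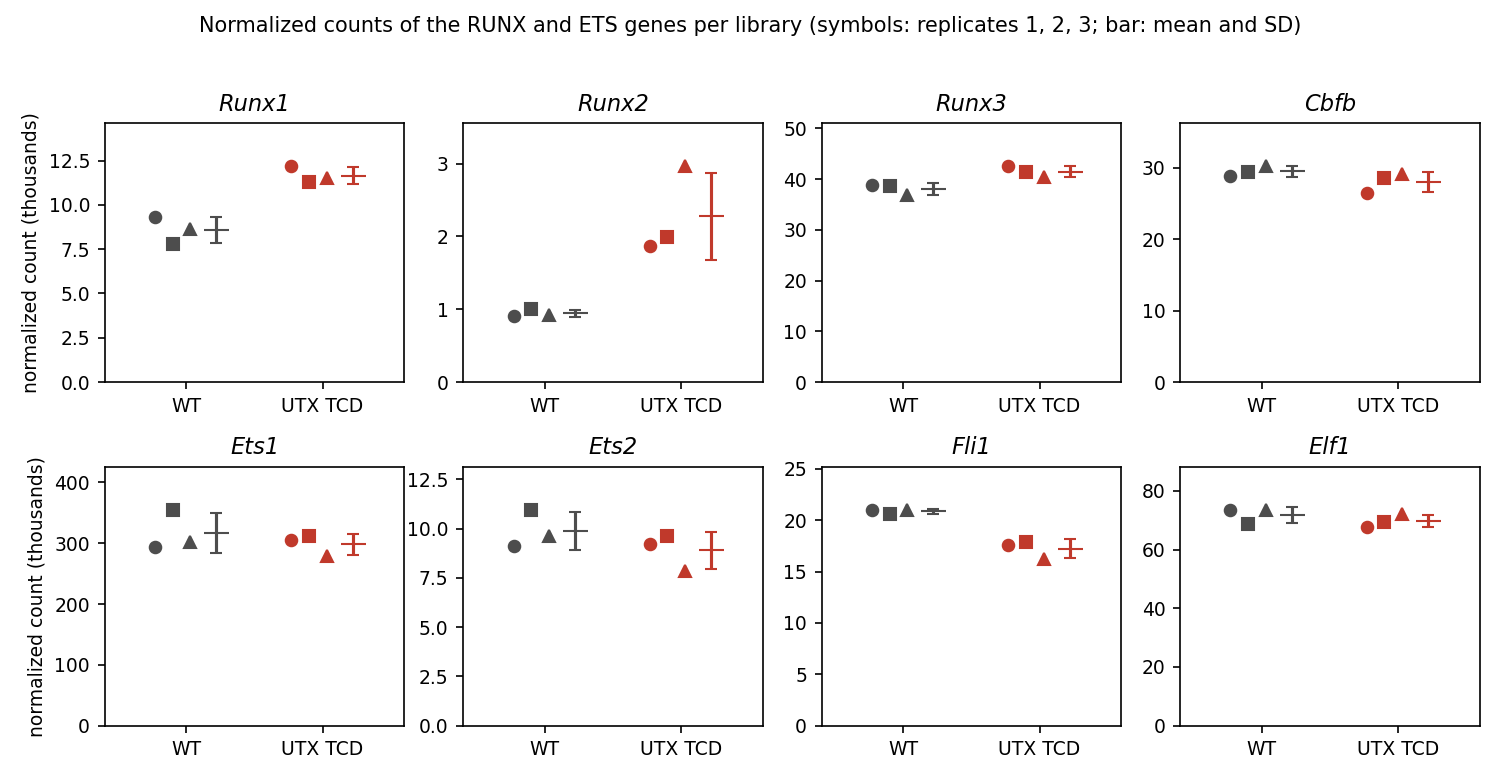
Normalized count of each RUNX and ETS gene in every RNA-seq library, WT and UTX^TCD, 3 libraries each, with bars for the mean and SD of a group (vertical axes start at 0 and are scaled per gene). Runx2 lay between 911 and 1002 in WT and between 1869 and 2963 in UTX^TCD, Fli1 lay lower in each UTX^TCD library, and Cbfb, Ets1, Ets2 and Elf1 overlapped between genotypes.

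Levels of different genes were compared per length, as RPKM (reads scaled by the length of the RefSeq exons and by the library total). In WT, Ets1 was highest at 407 ± 48.4 (SD, n = 3), followed by Elf1 at 107 ± 2.78, Cbfb at 69.8 ± 1.45, Runx3 at 59.8 ± 2.68, Fli1 at 34.1 ± 0.352, Ets2 at 19.2 ± 2.1, Runx1 at 8.01 ± 0.646 and Runx2 at 0.761 ± 0.0517. Each step in this order was larger than the SDs of the 2 neighbours. The order of the means in UTX^TCD was the same, from Ets1 at 400 ± 20.8 (SD, n = 3) to Runx1 at 11.4 ± 0.523 and Runx2 at 1.92 ± 0.515. There, however, Cbfb at 69.3 ± 3.42 and Runx3 at 67.9 ± 1.82 did not differ beyond their spread. These levels depend on the exon model, since transcripts from different starts were pooled in the gene count.

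By the same measure Runx3 made up most of the RUNX transcript pool. Its share of the summed length-corrected level of the 3 RUNX genes was 86.6%, 88.3% and 86.8% in the WT libraries and 83.8%, 84.3% and 82.8% in the UTX^TCD libraries. Runx1 made up 12.4%, 10.6% and 12.1% in WT and 14.3%, 13.7% and 14% in UTX^TCD. Runx2 made up 1.04%, 1.17% and 1.11% in WT and 1.89%, 2.08% and 3.12% in UTX^TCD. None of the 3 shares overlapped between genotypes, and Runx3 was the main part in each library.

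The profile of Runx2 over the 6 libraries was most like those of Kif4, a mitotic kinesin (Pearson r 0.9991), Rrm2, a subunit of ribonucleotide reductase that makes DNA precursors (0.9988), and Tmem98, a transmembrane protein (0.9988). Rrm2 had 1931, 2183 and 2017 in WT and 3498, 3756 and 4959 in UTX^TCD, and Kif4 had 679, 747 and 710 against 1118, 1174 and 1550. Both, like Runx2, were highest in replicate 3 of UTX^TCD. The 6 libraries fall into 2 groups, and 756 of 14458 genes had an r over 0.95 with Runx2.

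The other 22 ETS-domain genes give the family context. Of these, 12 were tested, and 6 (Elf3, Erg, Etv2, Fev, Spdef and Spic) were at 0 in at least 1 library. Elf4, the most abundant, had 70039, 64226 and 70586 in WT and 69616, 69323 and 64683 in UTX^TCD, which overlapped. At the test 3 were higher, namely Elk1 (log2 fold change 0.30), Etv5 (0.30) and Etv6 (0.31), and 1 was lower, Elk3 (−0.30). These 4 were named after their values were seen, and Etv5 passed neither without WT replicate 1 or 3 nor without any 1 of the UTX^TCD libraries (0.26 to 0.32, limma adjusted p 0.0524 to 0.12). None of the 12 was called by limma, edgeR or DESeq2, and 0 were beyond the fold limit at an unadjusted p under 0.05, although 4 were under that p alone. Over all tested genes 17.6% were called, 20.2% were higher at the test and 20.5% lower. Their median log2 fold change was 0.02, against 0.00 over all tested genes. Likewise none of the 4 ETS members was called by any of the 3 tools, with 0 beyond the fold limit at an unadjusted p under 0.05.

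Of the corepressors and coactivators that work with RUNX proteins, 14 were listed and 13 tested, with a median log2 fold change of −0.06. At the test 3 of the 13 were lower (Tle1, Tle4 and Tle5) and 0 higher, where 20.5% of all tested genes were lower. Tle1 was called, with 1238, 1313 and 1316 in WT and 1012, 890 and 809 in UTX^TCD (log2 fold change −0.52, limma adjusted p 0.00253). It lay just past the fold limit, and without replicate 3 of UTX^TCD it was no longer called (−0.44). Tle4 (−0.19) and Tle5 (−0.28) passed the test without reaching the fold limit and were named after their values were seen. Tle4 did not pass without WT replicate 3 (−0.17, limma adjusted p 0.0526). Without WT replicate 2 the lower genes were 5, with Sin3a (−0.12) and Prmt1 (−0.13) added, and without UTX^TCD replicate 3 Crebbp passed higher (0.19, limma adjusted p 0.00783), and these 3 genes too were named after their values were seen. Kat6a, an acetyltransferase and the most abundant of the list, had 88393, 86221 and 89183 in WT and 83916, 84541 and 77197 in UTX^TCD (limma adjusted p 0.12).

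Genes described as RUNX targets moved in both directions. Of 19 listed, 14 were tested, 2 were higher and 5 lower, and the median log2 fold change was −0.15. Over all tested genes 20.2% were higher and 20.5% lower, and 17.6% were called, against 5 of these 14. The 5 lower became 3 without WT replicate 1 or without WT replicate 3. Without WT replicate 3 the higher genes were also 3, as Prf1, named here after its values were seen, came to pass (0.17). Itgae, which encodes the integrin chain CD103, was called lower, with 61194, 65163 and 64576 in WT and 14859, 15948 and 14710 in UTX^TCD (log2 fold change −2.07 ± 0.05 SE, limma adjusted p 1.88e-08). Zbtb7b and Cd4, both of which RUNX3 silences in CD8+ cells, were also called lower and were scarce in both genotypes. Zbtb7b had 68.4, 34.6 and 86.2 in WT and 9, 18.4 and 22.9 in UTX^TCD (−1.85, limma adjusted p 0.0095). Cd4 had 90.1, 104 and 83.1 in WT and 58.5, 68.1 and 41.3 in UTX^TCD (−0.74, limma adjusted p 0.0384), and leaving out any 1 library other than UTX^TCD replicate 2 ended its call (−0.54 to −0.81, limma adjusted p 0.0619 to 0.101). Gzmb, which encodes granzyme B and was named here after its values were seen, passed lower without being called (−0.47, limma adjusted p 0.0217), and it did not pass without WT replicate 1 (0.0943), WT replicate 3 (0.0799) or UTX^TCD replicate 2 (0.0503), while without WT replicate 2 it was called (−0.61). Cd8b1, also named after its values were seen, had 148808, 138851 and 136749 in WT and 121688, 111349 and 95740 in UTX^TCD, and it passed lower with each library left out (−0.37, limma adjusted p 0.00634). The other called genes of the list were Il2rb, the IL-2 receptor β chain, and Eomes, a T-box factor. Il2rb had 38451, 41256 and 37165 in WT and 62265, 61468 and 56764 in UTX^TCD (0.63 ± 0.05 SE, limma adjusted p 3.65e-05). Eomes had 13370, 15315 and 13176 in WT and 19100, 19086 and 26829 in UTX^TCD, with replicate 3 of UTX^TCD highest, as for Runx2 (0.62 ± 0.12 SE, limma adjusted p 0.00388). In none of the 5 called genes did the genotypes overlap, which adds little, since they were called on the same libraries. Over all tested genes 51.9% did not overlap. Cd8a, the most abundant of the list, had 272448, 270012 and 274004 in WT and 311527, 313000 and 270975 in UTX^TCD, which overlapped. Its log2 fold change of 0.13 did not pass (limma adjusted p 0.146), but without replicate 3 of UTX^TCD it was 0.20 and passed (limma adjusted p 0.0146). Without that library Eomes fell short of the fold limit (0.46), so that 3 of the 5 called genes, Itgae, Zbtb7b and Il2rb, were called.

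Genes described as ETS targets numbered 11, of which 9 were tested, with 1 higher (Il2rb), 3 lower and a median log2 fold change of −0.02, where 20.2% of all tested genes were higher and 20.5% lower. Lck, the most abundant, encodes the kinase bound to CD8 and had 176303, 168825 and 180892 in WT and 156546, 159703 and 151489 in UTX^TCD (−0.17, limma adjusted p 0.0225). Lck did not pass without WT replicate 1 or 3 or without UTX^TCD replicate 1 (−0.15 to −0.17, limma adjusted p 0.0643 to 0.0832). Cd247, named here after its values were seen (−0.19, limma adjusted p 0.0241), did not pass when any 1 library other than WT replicate 2 was left out (limma adjusted p 0.0525 to 0.091), so that without WT replicate 1, WT replicate 3 or UTX^TCD replicate 1 the 3 lower became 1. Klf2, a factor that sustains lymph node homing and was named here after its values were seen, had 34618, 35971 and 36921 in WT and 24797, 26365 and 27237 in UTX^TCD. Neither Lck nor Klf2 overlapped between genotypes, where 51.9% of all tested genes did not. The log2 fold change of Klf2 was −0.46 (limma adjusted p 0.000109). Il7r, on both target lists, had 38077, 79127 and 37105 in WT and 40509, 39892 and 38044 in UTX^TCD. Replicate 2 of WT was far above all other libraries in this gene, as it was highest for Ets1 and Ets2, and the test was not passed (limma adjusted p 0.38).

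Chromatin accessibility was given as 1 value per genotype, the authors' mean log2 concentration of reads in each 401-base peak, with no value per library. Differences between genotypes therefore carry no error here and were not tested. The peak table holds only peaks that passed the authors' own FDR under 0.05, so the peaks are changed ones by construction and peaks that did not differ were not analysed. Coordinates are those of mm10, and differences are UTX^TCD minus WT.

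Of the 95 peaks at RUNX and ETS genes, 65 were more accessible in UTX^TCD and 30 less, or 68.4% higher, where 68.8% of all deposited peaks were higher. Beyond a difference of 0.5, 39 were higher and 20 lower, against 49.3% and 23.8% of all peaks. Beyond 1, 4 were higher and 10 lower, against 19.1% and 10.2% of all peaks. Strong gains were thus few. The genes differed among themselves, with 27 of 29 peaks higher at Runx1, 12 of 15 at Ets1, 9 of 12 at Fli1, 5 of 7 at Elf1, 6 of 10 at Runx2, 6 of 18 at Runx3 and 0 of 4 at Ets2. Cbfb had 0 peaks in the table. Peaks annotated at a promoter were 2, at Runx1 and Runx2, both higher.

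Runx1 had more peaks than all but 4 of the 10611 genes with a peak. From chr16:92724522 to chr16:93036004, over 311 kb, 26 peaks in a row were higher, with differences of 0.25 to 1.11 and a median of 0.67. This stretch runs from the long second intron through the distal start at 92826074, where the promoter peak chr16:92825978-92826378 had the smallest difference of the run (0.25, from 10.98 in WT to 11.24 in UTX^TCD), and on into the intergenic region upstream. The largest difference, 1.11, was at chr16:92761841-92762241 in intron 2 (6.76 in WT and 7.87 in UTX^TCD). Past the proximal start at 92697329 there were 3 peaks, all in intron 3 of a transcript from that start. Of these, chr16:92654364-92654764 and chr16:92661759-92662159 were lower, by differences of −0.91 and −1.02, and chr16:92641085-92641485 was higher, by 0.43.

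At Runx2 the peaks also fell into runs by position. From chr17:44468135 to chr17:44581945, 5 peaks were higher, by 0.55 to 1.85. These lie beyond the 3′ end of the coding transcripts, which end at 44603989, and 4 of them lie in an intron of a longer noncoding RefSeq transcript. The peak farthest out, chr17:44468135-44468535, is intergenic and had the largest difference, from 4.97 in WT to 6.82 in UTX^TCD. Inside the gene body, 4 peaks from chr17:44661485 to chr17:44718451 were lower, most of all chr17:44708525-44708925 in intron 5 (5.84 in WT and 3.94 in UTX^TCD, difference −1.90). At the distal promoter, chr17:44814437-44814837 was higher, from 6.01 to 6.59, a difference of 0.58.

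Runx3 showed the opposite balance to Runx1. From chr4:135069805 to chr4:135141007, over 71.2 kb, 12 peaks in a row were lower, by −0.41 to −1.82. They lie upstream of the distal start at 135120645 (8 intergenic peaks) and in the first intron behind it (4 peaks), and end before the proximal start at 135152545. The most negative were chr4:135069805-135070205 (8.84 in WT and 7.02 in UTX^TCD), chr4:135105182-135105582 (−1.78) and chr4:135085980-135086380 (−1.72). From chr4:135154166 on, just inside the proximal start, 5 peaks were higher, by 0.27 to 0.51, the largest being chr4:135155444-135155844. The RNA of Runx3 was not lower in UTX^TCD, and the gene count does not separate transcripts of the 2 starts.

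Ets1 and Fli1 are neighbours on chromosome 9, and are transcribed away from each other. At Ets1, 3 peaks from chr9:32628634 to chr9:32660778 were lower, by −0.39 to −1.68. The deposited annotation has them as intergenic, but 1 RefSeq transcript starts at 32636241, so that the first peak lies before that start and the other 2 lie within the transcript. The next 12, from chr9:32677630 to chr9:32755426, were higher, by 0.29 to 1.52, the largest lying in exon 8, the last, at chr9:32755026-32755426. At Fli1, 6 peaks of intron 1 were higher, by 0.30 to 0.55, although its RNA was lower. Upstream of its start the peaks alternated, with 2 lower (chr9:32549173-32549573 by −0.80, the most negative of the gene), 3 higher by up to 0.64 and 1 lower. At Ets2, 4 peaks were lower, by −0.44 to −0.74, from intron 1 to an intergenic site 67.7 kb from the start. Elf1 had small differences only, from −0.34 to 0.57, all within introns 1 and 2.

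**Figure D2:**
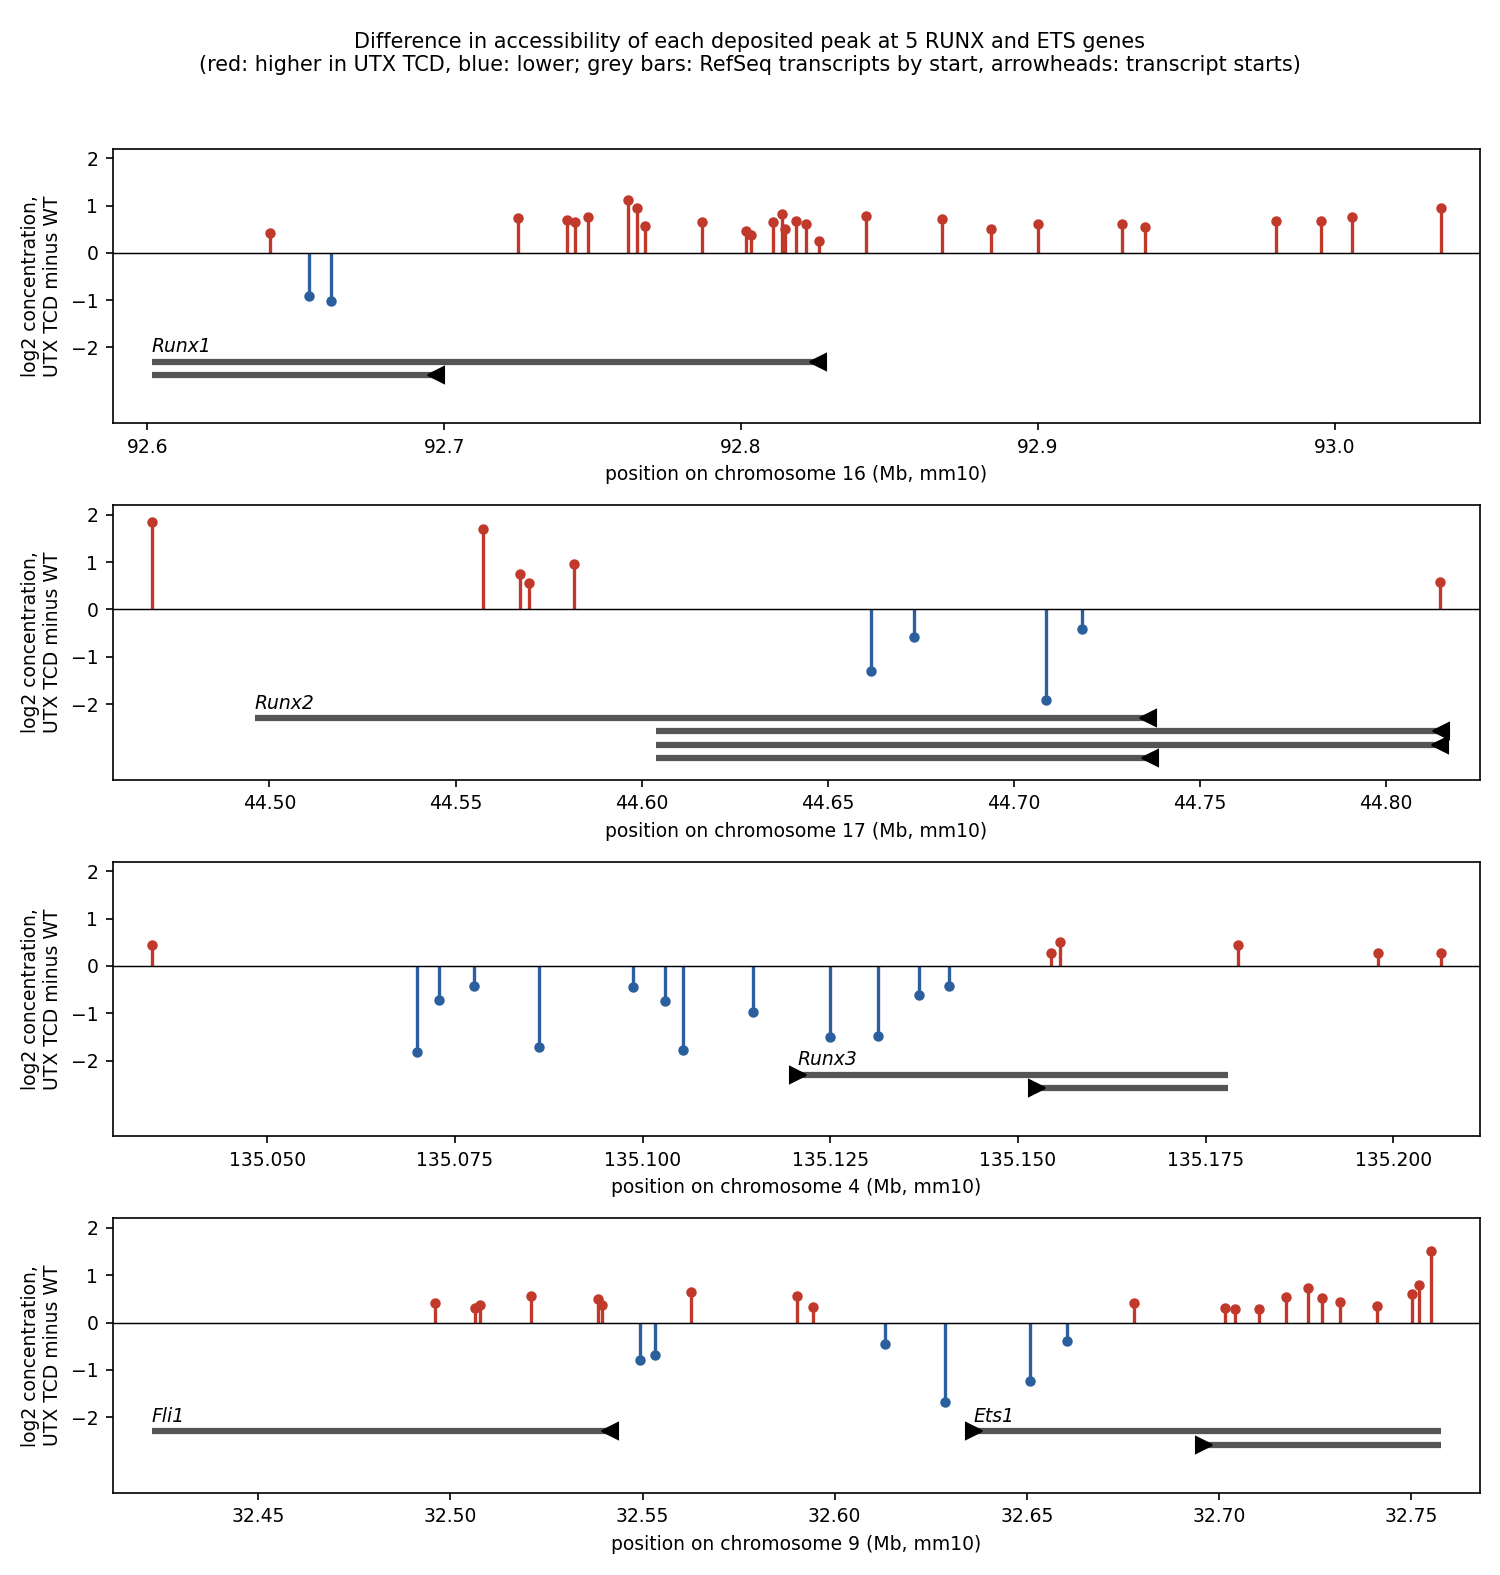
Difference in the authors' mean log2 concentration (UTX^TCD minus WT) for each deposited peak against mm10 position at Runx1, Runx2, Runx3 and the neighbours Fli1 and Ets1, with RefSeq transcripts as bars and their starts as arrowheads. At Runx3, 12 lower peaks lie in a row around the distal start and 5 higher peaks lie past the proximal start, whereas 26 higher peaks lie in a row at Runx1.

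Mixed directions within 1 gene were common in the peak table. Among 177 genes with at least 10 peaks, 76 (42.9%) had 3 or more peaks in each direction, as Runx2, Runx3, Ets1 and Fli1 did, and 39 had over 90% of their peaks higher, as Runx1 did. Runs of 1 direction were common too, with a median of 4 runs in genes with 3 or more peaks each way. Runx2 and Runx3 had 3 runs each, Ets1 had 2 and Fli1 had 4. Of 33 tested genes with over 90% higher, 19 were higher in RNA at the test and 1 was lower. Of 25 with over 90% lower, 20 were lower in RNA. Of 63 with 3 or more peaks in each direction, 12 were higher and 28 lower. Runx1 thus fell with the most frequent outcome of its class, while Runx2 and Runx3 were among the 12, Fli1 was among the 28 and Ets1 among the 23 that did not pass.

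The letters that RUNX and ETS proteins read were counted in the peaks of the whole table. TGTGGT, the RUNX core, and CCGGAA and AGGAAG, both with the ETS core, were searched on both strands of the GRCm38.p6 sequence of 23908 peaks. TGTGGT was present in 39.7% of all peaks, in 35.5% of the higher ones and in 48.8% of the lower ones. Outside promoters the shares were 38.6% and 49.9%, and there they were ordered by the size of the difference. Peaks below −1 held the letters in 52%, those from −1 to −0.5 in 50.2%, those from −0.5 to 0 in 46.1%, those from 0 to 0.5 in 40.7%, those from 0.5 to 1 in 39.3% and those above 1 in 35.3%. Median GC outside promoters was close (48.6% in higher and 48.9% in lower peaks), but the spread of GC differed. There, 1480 of 14229 higher and 220 of 7058 lower peaks had GC of 60% or more, where TGTGGT was rarest. With GC from 40% to 50% the shares were 45.2% and 53.6%, with GC from 50% to 60% 34.6% and 46.7%. The part of base composition in the contrast was not tested. At promoters, where GC is higher, 16.1% of higher and 27.5% of lower peaks held TGTGGT.

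For the ETS letters the contrast varied with the letters and the base composition. AGGAAG was in 54.5% of higher and 60.9% of lower peaks. Outside promoters with GC from 40% to 50% it was in 60% and 59.9%, nearly equal shares, while with GC from 50% to 60% they were 60.2% and 66.2%. With GC of 60% or more AGGAAG was in 37.8% of higher and 53.2% of lower peaks, a gap about as wide as that of TGTGGT there (13.3% and 27.7%). GC was not matched within that range, with a median of 66.3% in its 1480 higher and 62.8% in its 220 lower peaks. With GC under 40% AGGAAG was in 48.6% and 49.6% (TGTGGT in 45% and 50.4%). CCGGAA, a rarer and GC-rich match, was in 11.3% of higher and 7.27% of lower peaks, but at promoters the order was the opposite, 19.4% and 23.3%. AGGAAG at promoters was in 38.7% of higher and 47.7% of lower peaks. Among the peaks of the 8 genes, TGTGGT was in 36.9% of 65 higher and in 56.7% of 30 lower peaks, while AGGAAG was in 61.5% and 53.3% and CCGGAA in 6.15% and 10%. The genes differed, with TGTGGT at Runx3 in 8 of 12 lower and 2 of 6 higher peaks, at Runx1 in 1 of 2 lower and 12 of 27 higher peaks, and at Fli1 in 0 of 3 lower and 2 of 9 higher peaks. A match of letters is a description of the sequence and not a measured binding site, and neighbouring peaks are not independent.

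**Figure D3:**
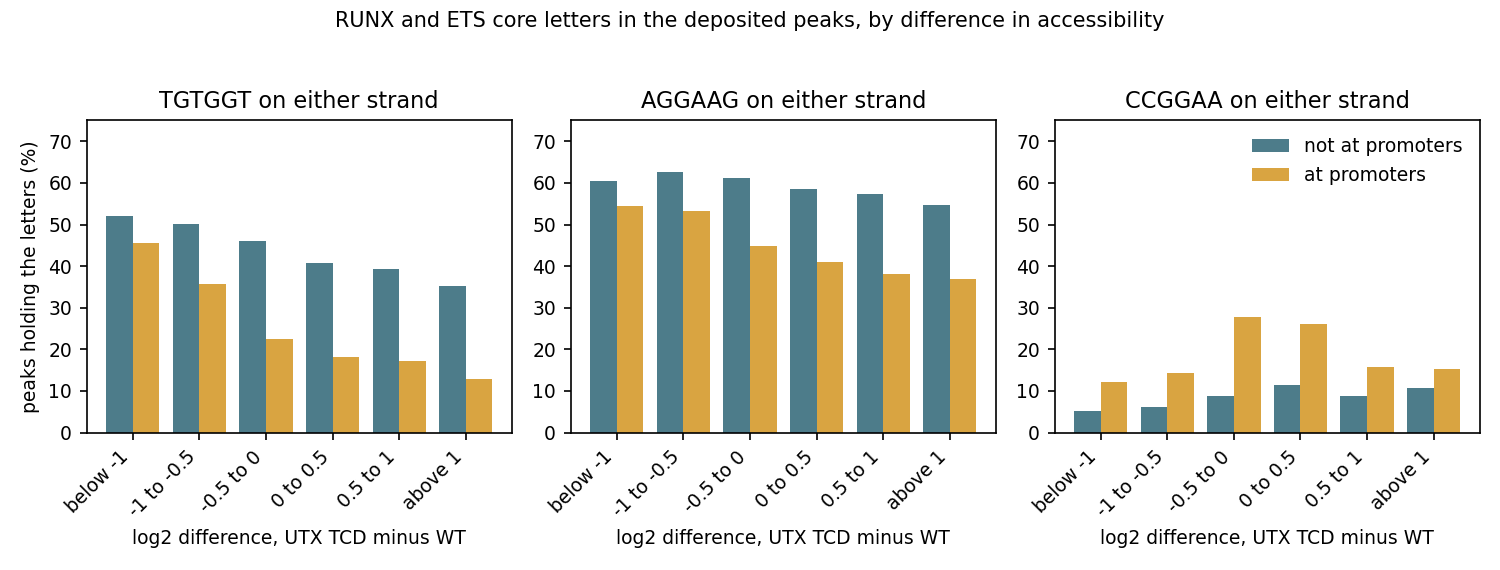
Percent of peaks outside promoters and at promoters that hold the RUNX letters TGTGGT or the ETS letters AGGAAG or CCGGAA on either strand, by difference in mean log2 concentration (UTX^TCD minus WT). Outside promoters the share with TGTGGT runs from 52% in peaks below −1 to 35.3% in peaks above 1.

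The peaks of the RUNX target genes were read in the same way. Itgae had 3 peaks, all lower, down to −1.63 at chr11:73086350-73086750, which is intergenic and held 0 matches to TGTGGT. Zbtb7b had 1 peak, at its promoter, which was lower (−0.77). Eomes had 3, all higher, up to 1.02, and Il2rb had 1 higher, by 1.59, and 1 lower. At Gzmb the peak with the largest difference, at its promoter, was lower (−0.96) and held 2 matches to TGTGGT. Cd8a had 4 peaks, 2 higher and 2 lower, of which the one with the largest difference was lower (−0.43) and held TGTGGT, while the RNA difference was 0.13 and did not pass. Cd8b1 had 4, 1 higher and 3 lower, down to −0.52 at a peak with 0 matches. Of 14 RUNX target genes with peaks, the peak with the largest difference held TGTGGT in 6, near the share in all peaks. Satb1, a genome organizer that RUNX proteins are described to bind and which was named here after its values were seen, had 23 peaks, all higher, with up to 2.21 at chr17:51842924-51843324. Its RNA did not pass the test (limma adjusted p 0.484).

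Sequences are shown for peaks with the largest differences at Runx2 and Runx3 and for the distal Runx3 promoter, because the opposite runs of peaks described above are found there. All are from GRCm38.p6, plus strand, and capitals mark TGTGGT and AGGAAG or their reverse complements ACCACA and CTTCCT. The higher Runx2 peak is shown as chr17:44468186-44468485, intergenic, with 1 match to TGTGGT and 1 to AGGAAG. The lower Runx2 peak is shown as chr17:44708576-44708875, in intron 5, with 2 matches to TGTGGT near a run of A. The lower Runx3 peak is shown as chr4:135069856-135070155, intergenic, with 1 match to AGGAAG. The promoter is the 250 bases before the distal Runx3 start, chr4:135120395-135120644, with 2 matches to TGTGGT close together, and 14% of 32851 RefSeq promoters cut the same way held at least 1.
Runx2 peak, largest positive difference: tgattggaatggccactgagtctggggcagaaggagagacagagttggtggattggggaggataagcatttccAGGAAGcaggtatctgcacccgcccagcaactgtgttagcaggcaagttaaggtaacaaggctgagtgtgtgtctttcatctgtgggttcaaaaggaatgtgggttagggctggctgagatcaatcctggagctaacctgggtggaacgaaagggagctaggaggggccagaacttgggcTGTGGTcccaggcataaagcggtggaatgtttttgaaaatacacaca
Runx2 peak, most negative difference: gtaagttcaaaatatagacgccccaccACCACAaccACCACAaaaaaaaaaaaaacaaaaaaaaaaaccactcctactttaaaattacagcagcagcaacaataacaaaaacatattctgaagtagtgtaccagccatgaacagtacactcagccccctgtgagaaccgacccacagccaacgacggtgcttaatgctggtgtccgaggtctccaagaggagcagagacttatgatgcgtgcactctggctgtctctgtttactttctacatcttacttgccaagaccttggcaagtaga
Runx3 peak, most negative difference: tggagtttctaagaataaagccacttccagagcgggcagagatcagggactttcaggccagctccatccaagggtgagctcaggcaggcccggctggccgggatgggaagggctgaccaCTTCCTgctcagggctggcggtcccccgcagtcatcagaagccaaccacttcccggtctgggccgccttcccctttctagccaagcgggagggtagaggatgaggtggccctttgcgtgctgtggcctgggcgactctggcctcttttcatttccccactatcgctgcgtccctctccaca
Runx3 distal promoter: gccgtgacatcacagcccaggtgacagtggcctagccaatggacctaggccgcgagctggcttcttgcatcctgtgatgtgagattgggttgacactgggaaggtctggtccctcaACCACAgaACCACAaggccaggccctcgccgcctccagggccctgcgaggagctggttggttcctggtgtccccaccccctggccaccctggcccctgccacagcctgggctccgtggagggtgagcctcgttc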

How the data were processed

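RNA-seq and ATAC-seq of sorted progenitor CD8+ T cells were analysed from tables that the authors deposited. For RNA-seq, per the labels and methods, reads were aligned to mm10 with HISAT2 2.2.1 and counted per gene with featureCounts, and the authors deposited a signal per library, the count divided by a DESeq2 size factor. Dividing each library by its smallest value above 0 gave whole reads for 100% of values (within 0.01). The annotation and strand setting were not given in the sources used here, which leaves genes that overlap, on the same or the other strand, uncertain. ATAC-seq reads were processed by the authors with cutadapt, Bowtie2, Picard, MACS2 and DiffBind, and the authors deposited, as log2 values, the mean concentration per genotype in each peak. A shift for the transposase was not given in the sources used here. The deposited p-values (FDR) of the authors served only to see that all peaks were under 0.05. The tables also hold the authors' own comparison, as log2 fold changes with standard errors, folds and p-values, and these columns were not used.

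Normalized counts with a mean of at least 10 were tested as log2(value + 1) with limma 3.58.1 in R 4.3.3 (lmFit, eBayes with trend, two-sided, Benjamini-Hochberg), after a check on simulated data, and genes were called at limits of 0.05 for the adjusted p and 0.5 for the log2 fold change in either direction. Fold changes of low genes are understated on this scale. Over all genes, 2538 were called by limma, 2541 by edgeR 4.0.16 and 2422 by DESeq2 1.42.0 on the recovered reads. Replicate libraries differed by more than sampling noise, so each counted as 1. Alternatives were pseudocounts of 0.5 and 5, no filter or a mean of at least 100, scaling to the same sum or by TMM, edgeR, DESeq2, a replicate block, each library left out in turn, other fold limits, and peaks limited by difference or distance.

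The members and lists were chosen with earlier results of these data known. Named were all members, the called genes of each list (up to 6) and its most abundant gene, the 3 genes most like a called member, the extreme and promoter peaks of each member, and genes said to be named after their values were seen. Peak sequences and transcripts came from RefSeq on GRCm38.p6, and promoters from a RefSeq table of the same build. Peak numbers count the nearest gene in the deposited annotation. 1 marker list is not reported here.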

Additional observations from a re-analysis of the deposited data

How the results depend on the processing

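Runx1, Runx2 and Fli1 kept their direction and passed the test in all 15 alternatives, with log2 fold changes of 0.38 to 0.51, 1.03 to 1.36 and −0.30 to −0.21. Runx3 passed in 9 of 15, and Cbfb, Ets1, Ets2 and Elf1 passed in none of them. The sign changed for Ets1 without WT replicate 2 (−0.14 to 0.00 over libraries left out) and for Elf1 with libraries scaled to the same sum (0.02), and the cause was not tested. Over all genes, 2538 calls became 5887 with no fold limit, by construction, and the other settings gave 1812 to 2755. Of the 4 members that passed, 1 did so past a fold of 1.5. Members past the fold limit were 2 with the same sum, in place of 1. Higher member peaks, 65 of 95, were 39 of 59 beyond a difference of 0.5, 4 of 14 beyond 1, 54 of 84 within 100 kb of the start and 12 of 16 within 10 kb. Called RUNX targets were 5, and 3 with a mean of at least 100, where fewer genes were tested. Leaving out each library in turn gave 2162 to 2572 calls, 3 to 4 members that passed, 1 to 2 past the fold limit, 3 to 5 RUNX targets, 0 to 1 RUNX cofactors and 0 other ETS genes in every case. With the replicate number as a block, 2474 genes were called, with 4 members passing and 1 past the fold limit, 5 RUNX targets, 1 cofactor and 0 other ETS genes. Deviations of same-numbered libraries correlated at 0.31, −0.20 and 0.09, so the numbers were not taken to pair the libraries. Scaling to the same sum shifted the median log2 fold change of all genes by 0.06. Runx2, the lowest member, had 831 reads or more in every library, whereas low list genes such as Zbtb7b, Cd4 and Ms4a1 rest on few reads.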
